A study of Mus musculus with 12 samples.

Results

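Wls, Depdc1a and Rpe65 are the last protein coding genes of mouse chromosome 3, and Wls was a viewpoint gene of the study's 4C-seq, an assay that counts the DNA contacts of a chosen locus. The 3 genes were taken by symbol from the nuclear RNA count table, which holds 46983 gene symbols in all. They are described here in nuclei of adult mouse cardiomyocytes, the contractile cells of the heart. Control mice carried Myh6-MCM, a Cre recombinase under the Myh6 promoter, active in heart muscle, that tamoxifen switches on. YAP5SA mice had the genotype Yap5SA+/tg; Myh6-MCM, which adds a transgene for an active form of the transcriptional co-activator YAP. Both groups were adult and received tamoxifen, and the nuclei were enriched with beads through the protein PCM1. Each group had 2 nuclear RNA-seq libraries, replicates 1 and 2. Nothing in the labels says that replicates came from separate animals, or how many were pooled, and a p-value here rests only on the spread among the libraries, which may be technical. The 4C-seq and ATAC-seq samples were not analysed here.

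Wnt proteins are secreted signals that need a lipid, added by the acyltransferase porcupine (Porcn), before they can leave the cell. The membrane protein encoded by Wls binds the lipid-bearing Wnt, carries it from the secretory pathway to the cell surface, and is returned for another round by the retromer complex. The neighbours of Wls act elsewhere. Rpe65 encodes the isomerase that regenerates the visual chromophore in the retinal pigment epithelium, and Depdc1a encodes a DEP-domain protein found in dividing cells.

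All 3 genes lie on the plus strand of chromosome 3 in mm10 (coordinates from GENCODE M21). Depdc1a spans chr3:159495433-159529955, Rpe65 chr3:159599175-159625321 and Wls chr3:159839672-159938664. The annotated Wls gene ends 1016 bases before the last sequenced base of the chromosome, after which 100000 bases are unsequenced. The stretch between Wls and Rpe65 is 214350 bases long and that between Wls and Depdc1a 309716 bases. The exons of none of the 3 genes overlap those of another gene model, but 2 other models lie inside Wls between its exons. The 250 bases before the RefSeq start site of Wls (GRCm38.p6, chr3:159839400-159839649) and of Depdc1a (chr3:159495183-159495432) are shown, 5′ to 3′, because both genes had higher levels in both YAP5SA libraries than in either control library. In Wls the capitals mark the DpnII site GATC, the first enzyme of the 4C protocol. In Depdc1a they mark a CCAAT box and a cell cycle homology region (CHR), here in its reverse form TTCAAA, 2 elements known from promoters of genes active before mitosis.
Wls: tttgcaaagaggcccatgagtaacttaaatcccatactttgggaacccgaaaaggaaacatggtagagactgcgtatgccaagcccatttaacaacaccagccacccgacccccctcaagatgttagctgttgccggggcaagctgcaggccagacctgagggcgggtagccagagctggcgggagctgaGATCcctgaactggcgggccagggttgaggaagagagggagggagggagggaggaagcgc
Depdc1a: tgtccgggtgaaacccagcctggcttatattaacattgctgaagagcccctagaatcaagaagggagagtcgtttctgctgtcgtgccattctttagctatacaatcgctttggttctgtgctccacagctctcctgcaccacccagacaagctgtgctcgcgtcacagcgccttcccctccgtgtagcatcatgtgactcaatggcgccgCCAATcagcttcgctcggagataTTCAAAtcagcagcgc

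The letters searched on both strands were GGAATG (the core bound by TEAD factors, the DNA-binding partners of YAP), TTTGAA (CHR) and CCAAT. The Wls window held none of the 3, and the Depdc1a window held CCAAT at -39 and the reverse CHR at -16 from its start site. Of these letters the Rpe65 window held CCAAT alone, at -49. Over all 32851 promoter windows of that length, 12.64% held GGAATG or its reverse, 15.99% TTTGAA or its reverse, and 33.85% CCAAT or its reverse. These matches describe the letters in the windows and are not binding sites measured here. The Wls window was 58.0% G or C and the Depdc1a window 53.2%, against a median of 52.4% over all windows. DpnII sites flank the Wls start closely, at positions 159839590 and 159839690, and the gene holds 236 of them. Of the 235 DpnII fragments inside the gene, 108 also hold a site of Csp6I (GTAC), the second enzyme. The position of the 4C viewpoint within Wls was not known here.

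Total counts ran from 7850661 to 15012122 per library. Levels are CPM, counts set relative to the library total, with TMM scaling, which corrects totals for their composition, and tests are edgeR's quasi-likelihood F test over 17715 genes with Benjamini-Hochberg adjustment, called at an adjusted p under 0.05. The control libraries stood farther apart than the YAP5SA libraries, with a chi-square per gene of 38.4 against 9.90. The 10 cardiomyocyte markers were all present. Their summed level was 32944 and 66816 CPM in the control libraries, replicate 1 first, and 23188 and 24474 CPM in the YAP5SA libraries. Most of each sum was Ttn, at 19901 and 48149 CPM in control and 15501 and 16678 CPM in YAP5SA. Of these markers 0 passed in edgeR, and 0 higher and 5 lower had an unadjusted p under 0.05 (against 12.7% and 10.9% of all genes). With DESeq2 5 passed as lower, where 527 of 18702 genes did. For 8 of the 10, both YAP5SA libraries lay below both control libraries, against 28.3% of all tested genes. Across all genes, 553 (3.12%) rose and 177 (0.999%) fell in YAP5SA, together 4.12%. These counts rest on single libraries: 3496 rose and 3223 fell when control replicate 1 was left out, 3749 and 3554 for control replicate 2, 68 and 5 for YAP5SA replicate 1, and 27 and 0 for YAP5SA replicate 2.

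Pairs of values below give replicate 1 first. Wls had 1574 and 1436 counts in control and 5191 and 4910 counts in YAP5SA. Scaled for depth, these were 143 and 190 CPM in control and 350 and 373 CPM in YAP5SA. Both YAP5SA libraries lay above both control libraries, as they did for 28.1% of all tested genes. The control libraries differed from each other more than the YAP5SA libraries, with coefficients of variation of 20.1% and 4.52%. The log2 fold change was 1.12 (SE 0.215), a 2.18-fold difference, and its adjusted p of 0.0545 in edgeR's quasi-likelihood test missed the threshold. Of all tested genes, 6.31% had a log2 fold change at least as high. The difference was positive in each of 11 alternative analyses, with log2 fold changes from 0.937 to 1.38, and passed in 5 of them. Among these were DESeq2 (adjusted p = 0.000809), where 5.72% of genes passed as higher, and the fit with no low-count filter (adjusted p = 8.90e-05), where 5.65% did. Scaling by library totals (adjusted p = 0.0456), where 658 genes rose against 553, was another. The rest were the fits without control replicate 1 or 2 (log2 fold changes 0.937 and 1.38). These 2 fits take the spread from the YAP5SA pair alone, and their far higher counts of called genes are given above. Without YAP5SA replicate 1 or 2 the log2 fold change was 1.19 and 1.09 and did not pass.

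**Figure D1:**
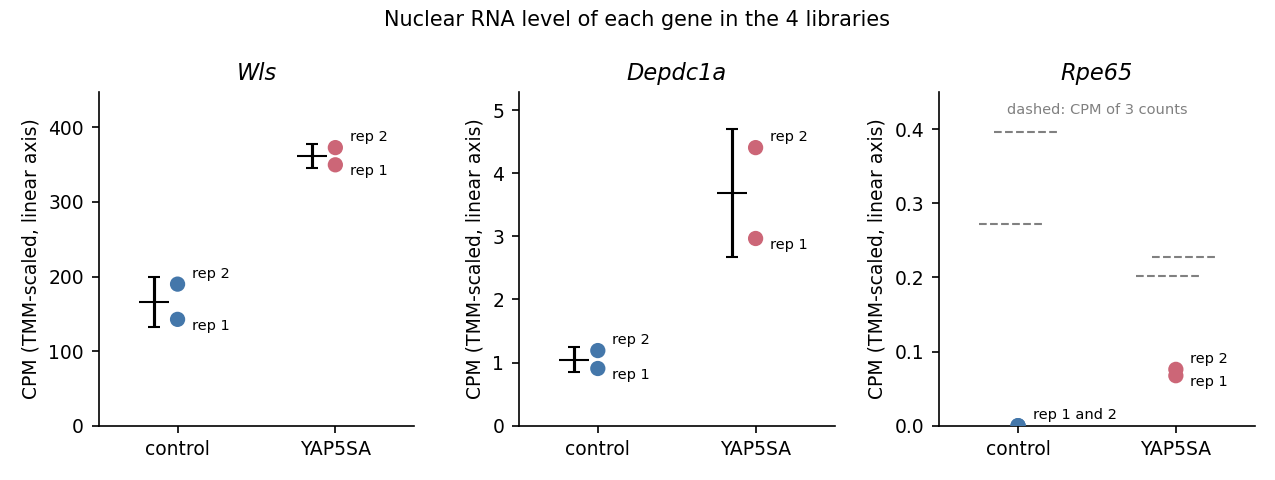
TMM-scaled CPM (vertical, linear axes from 0) of Wls, Depdc1a and Rpe65 in each of the 4 libraries, with black bars for the mean and SD of 2 libraries. Wls sits at 143 and 190 CPM in control and 350 and 373 CPM in YAP5SA, Depdc1a at 0.906 and 1.19 against 2.97 and 4.40 CPM, and both Rpe65 groups lie under the dashed CPM of 3 counts.

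Depdc1a had few reads. It was counted 10 and 9 times in control and 44 and 58 times in YAP5SA, or 0.906 and 1.19 CPM against 2.97 and 4.40 CPM. Both YAP5SA libraries lay above both control libraries, as they did for 28.1% of all tested genes. The exact 95% Poisson intervals of YAP5SA replicate 2 (3.34 to 5.69 CPM) and of control replicate 2 (0.544 to 2.26 CPM) did not overlap. The interval of YAP5SA replicate 1 (2.15 to 3.98 CPM) did overlap that of control replicate 2. Such intervals cover counting error only. The log2 fold change was 1.82 (SE 0.434), a 3.53-fold difference, and missed the threshold with an edgeR adjusted p of 0.0824. It was positive in each of 10 alternative analyses, from 1.52 to 2.10, and passed in 3 of them. One was the edgeR fit with no low-count filter (adjusted p = 0.00365), where 5.65% of genes passed as higher. The others were the fits without control replicate 1 or 2 (log2 fold changes 1.62 and 2.04), which take the spread from the YAP5SA pair alone.

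Rpe65 was at the edge of detection. It had 0 counts in both control libraries and 1 count in each YAP5SA library, too few for the low-count filter, so it entered no test. Where no read is seen, the floor used here is 3 counts, the one-sided limit, equal to 0.272 and 0.397 CPM in the control libraries. Both groups lay at or under that floor of 3 counts per library, and no difference was detectable at this depth.

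Per kilobase of annotated exon, the 3 genes kept one order in every library, with Wls above Depdc1a and Depdc1a above Rpe65. The level of Wls was 16.2 and 21.6 CPM per kb in control and 39.8 and 42.4 CPM per kb in YAP5SA. Depdc1a stood at 0.273 and 0.358 CPM per kb in control and 0.892 and 1.33 CPM per kb in YAP5SA. Wls was thus 59.5 and 60.3 times as high as Depdc1a in the control libraries and 44.6 and 32.0 times as high in the YAP5SA libraries. Whether intronic reads were counted was not known here, so exon length may not be the length that was counted.

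Within 2 Mb before the Wls start and up to the chromosome end, the table held 23 annotated genes, of which 8 are protein coding. Of the 23, 13 had at least 10 counts in all, 7 had 1 to 9 and 3 had none. From the end of Lrrc7, a neuronal scaffold gene, to the chromosome end there are 8 models. Between Lrrc7 and Wls, a stretch of 1277450 bases, only Depdc1a had more than 3 counts in all libraries together. The other expressed neighbours form a cluster about 1.8 Mb before Wls. There, Srsf11, which encodes a splicing factor, was at 155 and 160 CPM in control and 151 and 134 CPM in YAP5SA. Ankrd13c, an ankyrin repeat gene, was at 83.3 and 74.4 against 90.3 and 84.3 CPM, and Lrrc40 at 16.8 and 11.9 against 14.7 and 15.6 CPM. Their log2 fold changes were -0.14 (SE 0.165), 0.15 (SE 0.161) and 0.072 (SE 0.244). Without control replicate 2 the value of Lrrc40 was -0.12. Lrrc40 shares exon bases with B230334C09Rik on the other strand, and without a stated strand setting their reads cannot be told apart. B230334C09Rik itself had 65 counts in all and a log2 fold change of -0.84 (adjusted p = 0.335). Gm42611, inside Ankrd13c, was at 15.4 and 18.4 CPM in control and 14.1 and 10.9 CPM in YAP5SA, and Gm43362, inside Srsf11, at 17.7 and 21.5 against 15.9 and 14.9 CPM. Both YAP5SA libraries lay below both control libraries for these 2 models, as they did for 28.3% of all tested genes (log2 fold changes -0.43 and -0.35, edgeR adjusted p = 0.325 and 0.359).

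**Figure D2:**
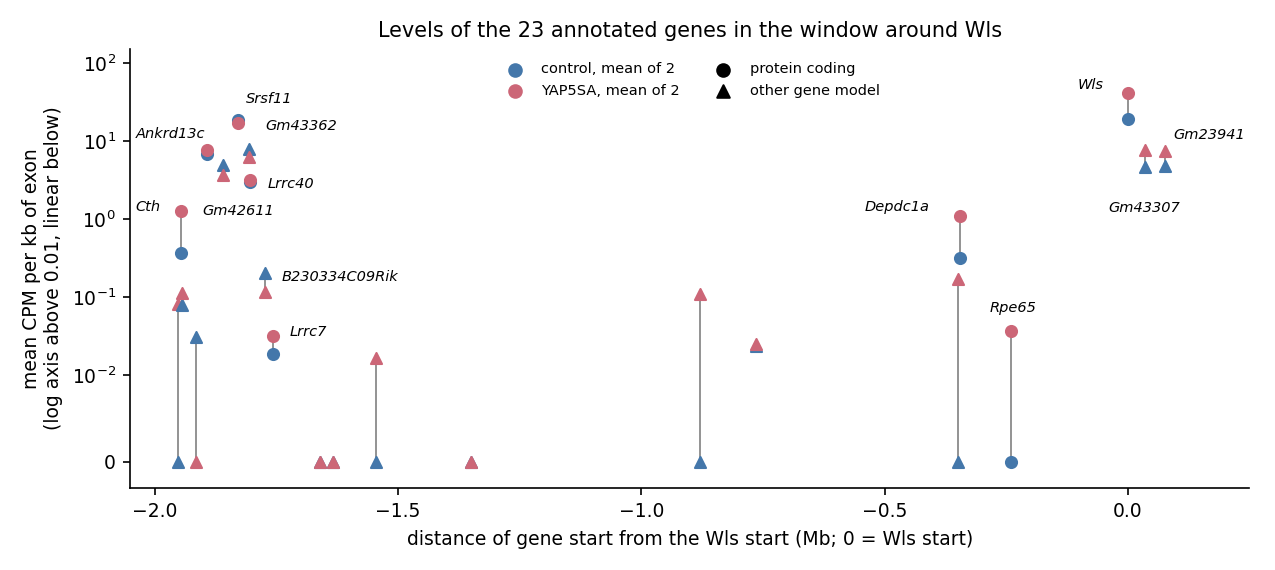
Mean CPM per kb of exon (vertical, log axis above 0.01) against the distance of each gene's start from the Wls start in Mb, blue for control and red for YAP5SA, circles for protein coding genes. Wls stands at the right edge with the 2 models inside it, and 1277450 bases, in which Depdc1a is the highest gene, separate it from Lrrc7 and the expressed cluster at the left.

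Cth, at the far end of that window, encodes cystathionine gamma-lyase, which makes cysteine and hydrogen sulfide. It had 14 and 6 counts in control and 70 and 30 in YAP5SA, that is 1.27 and 0.793 against 4.72 and 2.28 CPM. Both YAP5SA libraries lay above both control libraries, as they did for 28.1% of all tested genes. Replicates of Cth within each group differed by more than 1.5 times (log2 fold change 1.73, SE 0.542, edgeR adjusted p = 0.140). Of the 10 tested genes of the window, 0 passed in edgeR, 3 higher and 0 lower reached an unadjusted p under 0.05 (against 12.7% and 10.9% of all genes), and 1 (Wls) passed with DESeq2. Without control replicate 1, 3 were called higher and 2 lower, and without control replicate 2, 4 and 0. The median log2 fold change of the 10 was 0.11, against -0.057 over all tested genes. Among the 48 tested genes that start in the last 10 Mb of the chromosome, 0 passed in edgeR, 5 passed with DESeq2, and the median was -0.39. Of the 48, 5 higher and 11 lower reached an unadjusted p under 0.05 (against 12.7% and 10.9% of all genes). Without control replicate 1, 5 were called higher and 20 lower there, and without control replicate 2, 10 and 11. On chromosome 3 as a whole, 25 of 1003 tested genes rose and 13 fell, shares near the 3.12% and 0.999% of all genes. As over all genes, these counts changed with each library left out.

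The 2 models inside Wls were counted in the same 4 libraries as Wls itself. Gm43307, a tentative gene model (GENCODE class TEC) of 2371 bases on the same strand (chr3:159875846-159878216), starts 36174 bases after the Wls start and shares no base with any annotated Wls exon. It had 84 and 110 counts in control and 297 and 220 in YAP5SA, or 7.61 and 14.5 CPM against 20.0 and 16.7 CPM. Both YAP5SA libraries lay above both control libraries, as they did for 28.1% of all tested genes. The control libraries differed from each other by a larger ratio than the group means did (log2 fold change 0.74, SE 0.346, edgeR adjusted p = 0.266). The value was 1.31 without control replicate 2 and 0.35 without control replicate 1. As a share of the summed counts of Wls and Gm43307, Gm43307 made up 5.07% and 7.12% in control and 5.41% and 4.29% in YAP5SA. The exact binomial 95% interval of control replicate 2 (5.88% to 8.51%) overlapped that of YAP5SA replicate 1 (4.83% to 6.04%) but not that of YAP5SA replicate 2 (3.75% to 4.88%), while that of control replicate 1 (4.06% to 6.23%) overlapped all 3 others. These intervals cover counting error only, and the shares of the control libraries differ from each other by more than the group means do. The other model, the small nuclear RNA gene Gm23941 on the opposite strand (chr3:159916255-159916361), had 7, 3, 11 and 11 counts in the same order of libraries.

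Across the table, 529 tested models of the same class lay inside exactly 1 tested protein coding gene on the same strand. Pearson's r between the log2 fold change of the model and that of its host was 0.760 over these pairs, which share the 4 libraries and are given as a description. In 16 pairs the host had a log2 fold change of at least 1, and in all 16 the model's was positive, with medians of 0.873 for the models and 1.16 for the hosts. Wls and Gm43307 are 1 of these 16. The 16 were picked by the host's value, so Gm43307 is no separate support for the difference of Wls. Over all 529 pairs the median of model minus host was -0.3.

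Wls was set beside the other genes of Wnt acylation and secretion. Of 20 tested genes on this list, Wls included, 0 passed in edgeR, 3 higher and 1 lower had an unadjusted p under 0.05 (3 and 1 of 20, against 12.7% and 10.9% of all genes), and the median log2 fold change was 0.052. These shares are near the background. With DESeq2 1 passed, Wls itself, and without control replicate 1 or 2, 8 and 3 were called higher and 1 and 7 lower. Porcn was at 4.44 and 2.78 CPM in control and 1.95 and 2.28 CPM in YAP5SA (log2 fold change -0.78, SE 0.394). The retromer gene Vps35 was at 104 and 87.6 CPM against 118 and 126 CPM (log2 fold change 0.34, SE 0.172), and the retromer partners Vps26a, Vps26b and Vps29 had log2 fold changes of -0.012, 0.18 and 0.075. That of Vps26a has no stable sign, from -0.171 to 0.226 over the alternatives. Porcn and these retromer genes were chosen after their values were seen. Among genes with positive values, the smallest adjusted p after that of Wls belonged to Arf6, a small GTPase of endosomal recycling, at 0.64 (SE 0.157, edgeR adjusted p = 0.0883). In the other direction stood Notum, which encodes the enzyme that removes the Wnt lipid and is itself induced by Wnt signalling, at 2.99 and 1.85 CPM in control against 0.472 and 0.532 CPM in YAP5SA (log2 fold change -2.27, SE 0.480, edgeR adjusted p = 0.0655). Scd2, a fatty acid desaturase gene, was at -0.57 (SE 0.266, adjusted p = 0.268).

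Wls also belongs to a small family of membrane proteins with a GOLD domain and 7 membrane passes. Of its 6 tested members 0 passed in edgeR, and Wls passed with DESeq2. An unadjusted p under 0.05 was reached by 2 higher, Wls and Gpr107 (against 12.7% of all genes). Gpr107 was at 98.6 and 108 CPM in control and 163 and 157 CPM in YAP5SA (log2 fold change 0.63, SE 0.160, edgeR adjusted p = 0.0936). Tmem87a and Tmem87b were at -0.14 and -0.15, and turned to 0.031 without control replicate 2 and to 0.0062 without control replicate 1.

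Among the cargo of Wls, 7 of 19 Wnt ligand genes had enough counts to be tested. Of these 1 rose, Wnt7a, and 0 fell (1 and 0 of 7, against 3.12% and 0.999% of all genes). It passed the low-count filter only through its YAP5SA counts. Its place among the 7 thus depends on its high level there, and the share of 1 in 7 is no support for a rise of the ligands. Wnt7a had 4 and 0 counts in control and 87 and 62 in YAP5SA, or 0.362 and 0 CPM against 5.86 and 4.71 CPM, with an edgeR adjusted p of 0.0428. The call rests on near-absence in control and was lost when either YAP5SA library was left out (adjusted p = 0.158 and 0.231). Wnt9a was at 11.7 and 9.25 CPM in control and 28.4 and 21.7 CPM in YAP5SA and missed the threshold (log2 fold change 1.25, SE 0.242, edgeR adjusted p = 0.0552). Wnt2b and Wnt5b had log2 fold changes of -0.62 and -0.80, with control replicates that differed (8.97 and 18.2 CPM, and 1.72 and 6.48 CPM). Without control replicate 2 both turned positive, to 0.0079 and 0.44. The 7 ligands had a median of -0.10.

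Receptors and target genes were mixed. Of 17 tested Wnt receptor genes 0 passed in edgeR, 5 higher and 1 lower had an unadjusted p under 0.05 (against 12.7% and 10.9% of all genes), and 2 passed with DESeq2. Fzd5 was at 26.4 and 19.4 CPM in control and 47.3 and 59.2 CPM in YAP5SA (edgeR adjusted p = 0.0537), and Fzd2 at 17.9 and 32.0 against 60.0 and 68.4 CPM (adjusted p = 0.0709). Fzd4 (log2 fold change -0.95, adjusted p = 0.190) and Lgr6 (-0.82, adjusted p = 0.316) had the smallest adjusted p among those with negative values. Of 10 tested target genes of beta-catenin, the transcriptional arm of the pathway, 0 passed in edgeR, while 3 higher and 5 lower had an unadjusted p under 0.05 (against 12.7% and 10.9% of all genes) and 4 passed with DESeq2, 2 in each direction. Axin2, a feedback inhibitor widely used as a readout of the pathway, was at 17.4 and 10.3 CPM in control and 4.99 and 4.25 CPM in YAP5SA (log2 fold change -1.59, SE 0.338, edgeR adjusted p = 0.0660). Lef1, a transcription factor gene, was at 1.99 and 1.72 CPM against 0.202 and 0.456 CPM (adjusted p = 0.0705). Myc and Ccnd1, growth genes, had log2 fold changes of 1.42 and 1.14 (edgeR adjusted p = 0.0698 and 0.0896). The other target higher at an unadjusted p under 0.05 was Znrf3 (log2 fold change 0.65, SE 0.211, edgeR adjusted p = 0.148). Znrf3 was at 26.4 and 36.5 CPM in control and 49.3 and 49.2 CPM in YAP5SA, and was named after its values were seen. Of the 10 targets 4 had positive values, and the activity of the pathway was not tested.

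**Figure D3:**
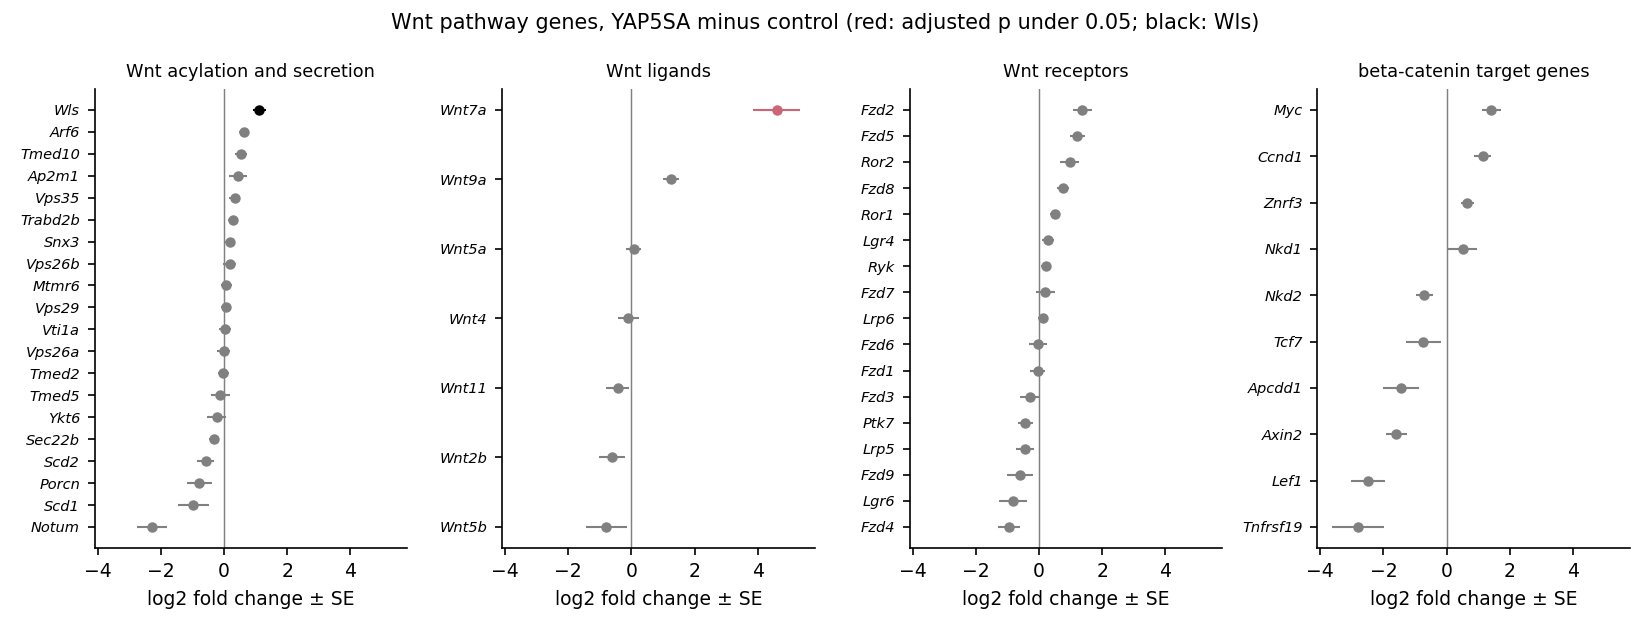
Log2 fold change with SE (horizontal, YAP5SA minus control) of each tested gene in 4 Wnt pathway lists, red where the adjusted p is under 0.05 and black for Wls. Wnt7a is the red point, and Wls is the highest of the secretion genes at 1.12. Notum, Axin2 and Lef1 lie at -2.27, -1.59 and -2.49, and Myc, Ccnd1 and Znrf3 at 1.42, 1.14 and 0.65.

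Depdc1a was set beside other genes of G2, mitosis and cytokinesis. Of 30 tested genes on this list, Depdc1a and Depdc1b included, 8 rose and 0 fell, against 3.12% and 0.999% of all genes. Of the list 28 higher had an unadjusted p under 0.05, against 12.7% of all genes, and all 30 had positive fold changes, with a median log2 fold change of 1.24. With DESeq2 19 of the list rose (against 5.72% of all genes), and with no low-count filter 27 (against 5.65%). With the replicate number as a block 2 rose, where 321 did over all genes. As over all genes, the number changed with each library left out, and no gene of the list rose without either YAP5SA library. Depdc1a had the highest fold change of the list and its mean of 2.37 CPM over the 4 libraries was among the lowest. Its paralog Depdc1b is on the same list. Depdc1b had 10 and 10 counts in control and 54 and 32 in YAP5SA, or 0.906 and 1.32 CPM against 3.64 and 2.43 CPM (log2 fold change 1.47, SE 0.450, edgeR adjusted p = 0.135). In sum over the groups, Depdc1a went from 19 to 102 counts and Depdc1b from 20 to 86. Anln encodes anillin, a scaffold of the contractile ring, and rose from 25.9 and 34.0 CPM in control to 84.5 and 103 CPM in YAP5SA (log2 fold change 1.65, SE 0.216, edgeR adjusted p = 0.0314). Ect2, whose product activates RhoA during cytokinesis, rose from 12.6 and 12.7 CPM to 28.7 and 34.7 CPM (log2 fold change 1.33, SE 0.195, edgeR adjusted p = 0.0356). The call of Ect2 was lost with the block (0.0562), and those of both genes without YAP5SA replicate 1 or 2 (0.100 and 0.263 for Anln, 0.168 and 0.422 for Ect2). Among other genes named for a DEP domain, Depdc5, a subunit gene of a complex that restrains mTORC1, was at 31.7 and 41.1 CPM in control and 62.6 and 68.3 CPM in YAP5SA (log2 fold change 0.85, edgeR adjusted p = 0.0774), and Depdc7 at 3.26 and 1.45 against 2.16 and 3.11 CPM. Of these 4 DEP-domain genes 0 passed in edgeR, 3 higher had an unadjusted p under 0.05 (against 12.7% of all genes) and 1 passed with DESeq2.

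**Figure D4:**
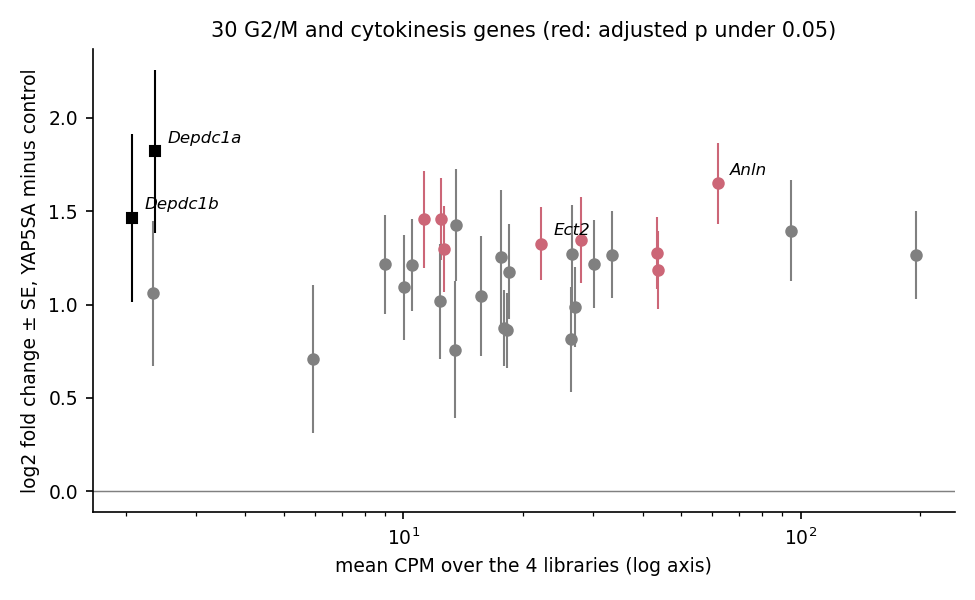
Log2 fold change with SE (vertical) against mean CPM over the 4 libraries (log axis) for 30 G2/M and cytokinesis genes, red where the adjusted p is under 0.05 and black squares for Depdc1a and Depdc1b. All 30 lie above 0, and Depdc1a at 1.82 and Depdc1b at 1.47 lie at the left edge, where the levels are lowest and the errors wide.

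No relative of Rpe65 was expressed at a level that could be tested. Its 2 paralogs of the carotenoid oxygenase family, Bco1 and Bco2, had 5, 1, 1 and 3 and 3, 3, 4 and 2 counts over the 4 libraries, control first. Of 9 markers of the retinal pigment epithelium, Rpe65 included, 3 had enough counts to be tested. Otx2 had 0 counts and Tyr 1 count in all libraries together, and Rlbp1, Pmel and Ttr had at most 12 in any library. Lrat had 13, 2, 9 and 13 counts and Best1, a chloride channel gene, 105, 25, 38 and 28 (log2 fold change -1.47, edgeR adjusted p = 0.192). The 1 marker that passed was Mitf, a transcription factor gene also active in other cells, including heart muscle, which fell from 98.6 and 100.6 CPM to 31.1 and 28.3 CPM (log2 fold change -1.75, SE 0.162, edgeR adjusted p = 0.0201). Of 13 tested genes that bind, move or convert retinoids, 2 rose and 0 fell (against 3.12% and 0.999% of all genes), with a median of 0.47. At an unadjusted p under 0.05 stood 5 higher and 1 lower (against 12.7% and 10.9% of all genes). With DESeq2 3 were called higher and 1 lower, with no low-count filter 6 and 2, and without control replicate 1 or 2, 6 and 1 and 6 and 3. Dhrs3, which encodes a retinaldehyde reductase, rose from 31.9 and 30.5 to 65.9 and 73.1 CPM (log2 fold change 1.15, SE 0.164, edgeR adjusted p = 0.0345). Abca4, a retinoid transporter gene of photoreceptors, rose from 14.9 and 10.97 to 37.6 and 32.9 CPM (adjusted p = 0.0394). Cyp26b1, which encodes an enzyme that degrades retinoic acid, was at 24.7 and 3.83 CPM in control and 1.08 and 0.456 CPM in YAP5SA and did not pass (adjusted p = 0.0831). It was called lower with DESeq2 (2.54e-05), with no low-count filter (2.22e-21), with the replicate number as a block (0.0297) and without control replicate 1 or 2 (0.000194 and 1.59e-58). Dhrs9, a retinol dehydrogenase gene, was at 4.62 and 1.59 against 1.35 and 1.14 CPM (adjusted p = 0.242). The calls of Dhrs3, Abca4 and Mitf were lost when either YAP5SA library was left out, and that of Dhrs3 also with the replicate number as a block (adjusted p = 0.0595).

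Among 10777 protein coding genes with a mean of at least 5 CPM, likeness to a member was measured as the Euclidean distance of centred log2 CPM over the 4 libraries. The 5 genes nearest to Wls were Hist1h4a (distance 0.0437), a histone H4 gene whose reads near-identical copies can share, Kif18b (0.0638), a mitotic kinesin gene, Il10ra (0.0660), an interleukin-10 receptor gene, Rnf213 (0.0699), a ubiquitin ligase gene, and Mthfd1 (0.0779), a gene of folate metabolism. Their group difference follows from this choice, since likeness was measured over the same libraries, so no test of it is given. The 5 genes nearest to Depdc1a were Tlr2 (0.186), a gene of bacterial sensing, Anln (0.187), Metrnl (0.187), a secreted factor gene, Was (0.190), an actin regulator gene of blood cells, and F2rl1 (0.195), a protease-activated receptor gene. For these too the direction was fixed by the choice.

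Markers of other heart cells moved in the same libraries. Of 13 macrophage markers 5 rose and 0 fell (Fcgr1 and Cd14 among them), against 3.12% and 0.999% of all genes. With DESeq2 11 were called higher, against 5.72% of all genes. The edgeR calls were lost when either YAP5SA library was left out. Of the 13, 12 had positive log2 fold changes. The exception was Cd163, at 81.2 and 13.1 CPM in control and 16.0 and 19.4 CPM in YAP5SA. Its log2 fold change was -1.42 (edgeR adjusted p = 0.326), it was called lower with no low-count filter, and it was named after its values were seen. None of the 13 markers was at 0, and their summed level was 874 and 603 CPM in control and 1457 and 1750 CPM in YAP5SA. Of 10 endothelial markers Vwf and Robo4 fell and 0 rose (against 0.999% and 3.12% of all genes). Neither call held with the replicate number as a block (adjusted p = 0.0616 and 0.0588) or without either YAP5SA library. At an unadjusted p under 0.05 stood 0 higher and 8 lower (against 12.7% and 10.9% of all genes). The median log2 fold change was -0.84, and 0 were positive. The sum was 2030 and 1306 against 1009 and 934 CPM. Of 10 fibroblast markers Lum and Thy1 rose and 0 fell (against 3.12% and 0.999% of all genes). Again neither call held with the block (adjusted p = 0.0573 and 0.0848) or without either YAP5SA library. Of the 10, 5 had positive log2 fold changes, and the median was -0.051. Without control replicate 1 or 2, 4 and 3 were called higher and 0 and 4 lower. The list had sums of 8231 and 6680 against 6382 and 7961 CPM. Of 8 smooth muscle and pericyte markers Acta2 rose and 0 fell (against 3.12% and 0.999% of all genes). This call was lost without YAP5SA replicate 2. Only 3 of the 8 had positive log2 fold changes, and the median was -0.54. Of the list 1 higher and 3 lower had an unadjusted p under 0.05 (against 12.7% and 10.9% of all genes). The sums were 1433 and 1260 against 1437 and 1605 CPM, of which Acta2 alone was 158 and 97.5 against 712 and 917 CPM. Of 6 tested epicardial markers 0 passed in edgeR, 3 higher and 2 lower had an unadjusted p under 0.05 (against 12.7% and 10.9% of all genes), 2 passed with DESeq2, and the sums were 61.3 and 43.5 against 77.8 and 88.4 CPM. Within the control pair, Wls was higher in replicate 2 (190 against 143 CPM), where all 10 cardiomyocyte markers were higher too. The sums of the other 5 lists were lower there, but single markers were mixed: 4 of 13 macrophage, 2 of 10 endothelial, 2 of 10 fibroblast, 4 of 8 smooth muscle and pericyte, and 2 of 7 epicardial markers were higher in control replicate 2. Ptprc, a marker of all white blood cells, was at 17.2 and 37.9 CPM in control, and Cspg4, a pericyte marker, at 238 and 501 CPM; both were chosen after their values were seen. Between the groups, Wls and the sums of the macrophage, epicardial, and smooth muscle and pericyte lists were higher in both YAP5SA libraries. The cardiomyocyte sum, most of it Ttn, and the endothelial sum were lower in both, and the fibroblast sums overlapped. In these bulk libraries fewer cells of a type and less RNA per cell cannot be told apart, and the part of other cells in the values of Wls and Depdc1a was not tested.

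**Figure D5:**
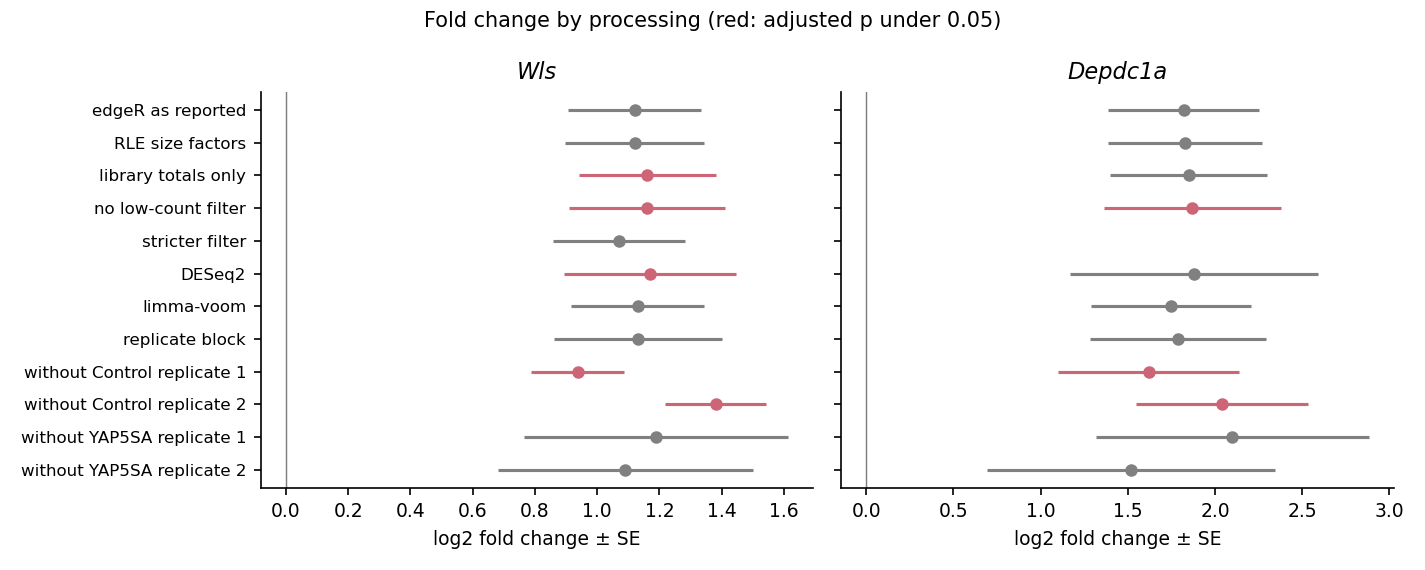
Log2 fold change with SE (horizontal) of Wls and Depdc1a in edgeR as reported and under each alternative analysis, red where the adjusted p is under 0.05. Every point lies above 0, with Wls from 0.937 to 1.38 and Depdc1a from 1.52 to 2.10, and the calls change with the processing.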

How the data were processed

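The authors deposited raw counts per gene symbol for 4 nuclear RNA-seq libraries, in whole numbers. Per the labels' protocols, libraries were stranded and depleted of ribosomal RNA, reads were mapped to mm10 with STAR, and the authors tested with DESeq2. No label or header names the counting program, its strand setting, the annotation or tool versions. Genes passing filterByExpr (minimum count 10) were tested with edgeR 4.0.16 (R 4.3.3, TMM), 2 YAP5SA against 2 control libraries by title. SE is the log2 fold change over the square root of F. Of the symbols, 44052 matched 1 GENCODE M21 gene. Promoter windows are from RefSeq (GRCm38.p6), and all 3 members matched. The members and gene lists were chosen with earlier results of these data known. Named genes are the members, window genes, the 2 smallest adjusted p per direction and list (for heart cell lists, called genes only) and the nearest patterns; others are marked in the text or, for retinal markers, named to account for the list. The pipeline was tested on simulated data. Alternatives were RLE scaling, library totals, no filter, a stricter filter (5 CPM in 2 libraries), DESeq2 1.42.0, limma-voom 3.58.1, a replicate block and leaving out each library.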

Additional observations from a re-analysis of the deposited data

How the results depend on the processing

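Over all genes, DESeq2 called 1069 higher and 527 lower, the edgeR fit with no low-count filter 1727 and 1689, and the fit with the replicate number as a block 321 and 112. Leaving out 1 library each gave 27 to 3749 higher and 0 to 3554 lower genes. The log2 fold change of Wls passed with DESeq2 (1.17), with library totals only (1.16) and with no filter (1.16), and ran from 0.937 to 1.38 when 1 library was left out. That of Depdc1a passed with no filter (1.87) and ran from 1.52 to 2.10 when 1 library was left out. The stricter filter removed Depdc1a. Between the fits lacking control replicate 2 and YAP5SA replicate 2, the adjusted p of Wls was 5.37e-16 and 0.533, and that of Depdc1a 0.000199 and 0.778. These fits take a lone library's spread from the other group's pair. Deviations of libraries with the same replicate number were hardly related across genes (r -0.0917). With 2 libraries per group this cannot decide whether the samples were paired. In the edgeR fit with the block the log2 fold change was 1.13 for Wls (adjusted p = 0.0847) and 1.79 for Depdc1a (adjusted p = 0.124). Rpe65 kept 1 or 2 counts and no fold could be given in any setting. Directions turned when 1 library was left out for Lrrc40 (leave-one-out range -0.116 to 0.357), Tmem87a (-0.258 to 0.0308), Tmem87b (-0.251 to 0.00623), Wnt2b (-1.04 to 0.00794), Wnt5b (-1.49 to 0.444), Depdc7 (-0.279 to 0.852), Lrat (-0.536 to 1.55) and Vps26a (-0.171 to 0.226). Vps26a also turned with DESeq2 (0.0389), library totals (0.0126), limma-voom (0.000987), no filter (0.0352) and the replicate block (0.00334). Of 635 values of 59 other genes under the alternatives, 491 kept direction and side of the threshold, 41 lost the call, 87 gained it and 16 turned, those just named. The causes were not tested. The low counts of Rpe65 and Depdc1a limit their precision.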
